A study of Rattus norvegicus with 4 samples.

Results

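The genes described here are Magi1, Irag1, Limch1 and Tnik, which lost most or all of their listed m6A peaks in CFs given FTO, beside their relatives Magi2, Magi3 and Mink1. They are 7 genes of the 8729 with a peak in either group. Together they carried 53 of the 21249 Vector peaks and 13 of the 17796 FTO peaks. Magi1, Irag1, Limch1 and Tnik were selected on the same peak lists, as cytoskeletal and signalling genes with 8 or more Vector peaks and a large decrease with FTO. Their numbers of peaks are therefore a description and not a test. The 3 relatives were added by family, also with earlier results of these data known. Other relatives, such as Map4k4 and Nrk, are not among them.

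Neonatal rat CFs, primary cells from the hearts of Sprague-Dawley pups of wild-type background, were transfected for 48 h with empty plasmid (Vector, a control) or with a pcDNA plasmid carrying rat FTO cDNA (FTO). FTO removes the methyl group of m6A, and the comparison asks which transcripts lose m6A peaks when it is raised. In m6A-seq, fragments bound by an antibody against m6A (IP) are sequenced next to input RNA, and peaks are stretches in which IP exceeds input. Each group had 1 IP library and 1 input library, so no value below has a replicate check, and no p-value was computed. The deposited lists give, for each peak, a number, a length in bp, a transcript and usually a gene, but no height, enrichment or read count, so the sequencing depth is unknown. A transcript that became scarcer and a transcript that lost its methyl groups cannot be told apart in these lists, nor can fewer cells with a transcript and less of it per cell. The Fto gene had 3 Vector peaks and 9 FTO peaks, with plasmid and endogenous reads not separated. Of 7 fibroblast markers, 4 had a peak in both groups (Col5a1 had 34 and 29), Postn in the Vector list alone and Ddr2 in the FTO list alone, with 65 and 58 peaks in all. Of 6 cardiomyocyte markers, 5 had a Vector peak and 4 an FTO peak, with 22 and 24 peaks in all, among them 7 and 7 for Myh6. Vim and Ttn had none in either group. The part of cardiomyocyte RNA in the results was not tested.

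MAGI proteins are membrane scaffolds of the MAGUK class that use PDZ and WW domains to hold adhesion molecules and angiomotins at cell junctions. IRAG1 sits in the endoplasmic reticulum with the IP3 receptor and, when cGMP-dependent kinase I phosphorylates it, restrains calcium release, a step best known from the relaxation of smooth muscle. LIMCH1 carries a calponin homology and a LIM domain and activates non-muscle myosin II on stress fibres. TNIK and MINK1 are Ste20 family kinases of the same small group as MAP4K4, and TNIK is known as an activator of TCF-driven transcription in Wnt signalling.

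Magi1, the one of the 7 genes with the most peaks, had 14 with Vector and 4 with FTO. Irag1 had 11 Vector peaks and 1 FTO peak, Limch1 had 9 and 0, and Tnik had 8 and 0. The relatives differed from them in number. Mink1 had 5 peaks in each group, Magi2 had 1 in each, and Magi3 had 5 with Vector and 2 with FTO. Fewer peaks were thus listed with FTO for 5 of the 7 genes, but 4 of these 5 were chosen for their decrease. The count can therefore not be compared with all genes with a peak, of which 41.4% had fewer and 21.2% had more. Among the relatives only Magi3 had fewer. The difference between the relatives and the other genes was not tested, and it is partly set by the choice of the 4 genes.

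**Figure D1:**
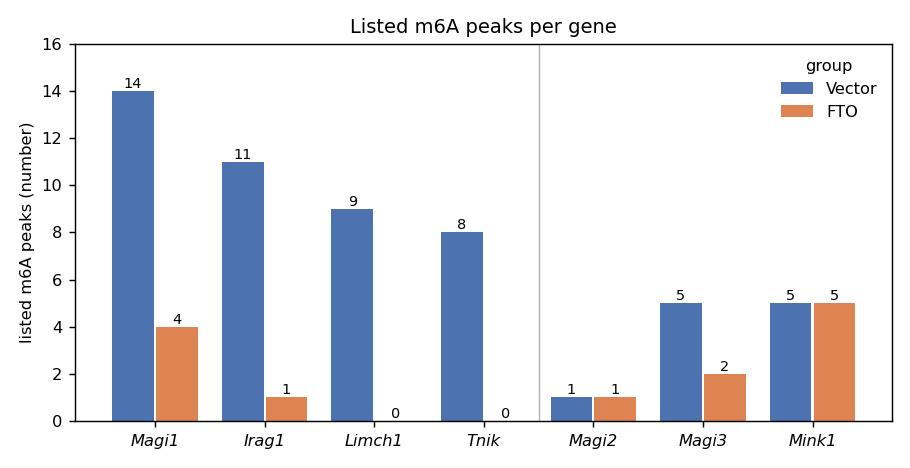
Number of listed m6A peaks (y axis) for each of the 7 genes (x axis) in the Vector and FTO lists, 1 list per group and so no error bar, with the genes chosen for their decrease left of the line and the relatives right of it. The numbers went from 14 to 4 for Magi1, from 11 to 1 for Irag1 and to 0 for Limch1 and Tnik, while Mink1 had 5 in both.

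These decreases stood at the edge of what genes with many peaks showed. Of the 376 genes with at least 8 Vector peaks, 284 had fewer FTO peaks, 50 had as many and 42 had more, with a median difference of -2. FTO peaks were at most 50% of Vector peaks in 15.2% of these genes, and all 4 of the chosen genes were among them, as their selection required. No FTO peak was listed for 0.798% of them, which is 3 genes, namely Acan, Limch1 and Tnik. Having no FTO peak was commoner among genes with 1 to 7 Vector peaks, at 19.0%. Just outside the limit of 8, 3 of the 206 genes with 7 Vector peaks had 0 FTO peaks, namely Adamtsl2, Kif4a and Tmem132d. Magi1 was the least depleted of the 4, with 28.6% of its number left, and Pcsk6 lay just below it with 11 and 3 peaks, while genes such as Kif20b and Akap6 lay just above it with 10 and 3 peaks each.

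Each gene was also set beside the genes with as many Vector peaks. The 13 other genes with 14 Vector peaks had a median of 12 FTO peaks and a range of 5 to 15, so that Magi1, with 4, lay under all of them. Among the 31 other genes with 11, the median was 10 and the range 0 to 14, and Irag1 lay above Acan alone. The 68 others with 9 Vector peaks had 1 to 13 FTO peaks and the 112 others with 8 had 1 to 12, so Limch1 and Tnik lay below all of theirs. These low places follow from how the 4 genes were chosen and are no further result. The relatives lay inside their own ranges. Of the 386 other genes with 5 Vector peaks, 74 had no more FTO peaks than Magi3 and 334 no more than Mink1, against a median of 4. Among the 3340 others with a lone Vector peak, the median was 1 FTO peak, as for Magi2.

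**Figure D2:**
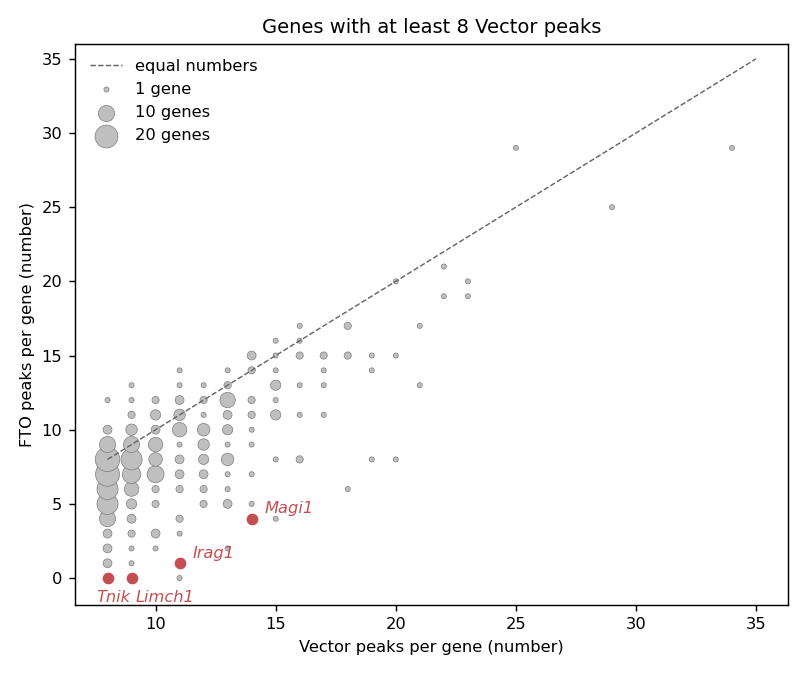
FTO peaks (y axis) against Vector peaks (x axis) for the 376 genes with at least 8 Vector peaks, where the area of a grey circle gives the number of genes at that point and the dashed line marks equal numbers. Magi1, Irag1, Limch1 and Tnik (red) lie along the lower edge, which is how they were chosen.

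Peaks were paired when gene and length in bp were equal in both lists, because the lists carry no positions. In Magi1 (gene ID 500261) the 14 Vector peaks, taken in order of peak number, were 954, 189, 144, 94, 94, 204, 294, 621, 183, 131, 202, 207, 120 and 142 bp long. Its 4 FTO peaks were 954, 94, 621 and 183 bp long. Each of these 4 lengths was thus already found among the Vector peaks, in the same order, and no new length appeared. The 621 and 183 bp peaks carried consecutive numbers in both lists. The length of 94 bp occurred on 2 transcripts in the Vector list, and the FTO peak was on ENSRNOT00000037848, the transcript of the later one.

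The Magi1 peaks were spread over 3 annotated transcripts. ENSRNOT00000037848 had 9 Vector peaks and 3 FTO peaks, ENSRNOT00000083271 had the 954 bp peak in both groups, and ENSRNOT00000071315 had 4 Vector peaks and none in the FTO group. The last 5 Vector peaks, from 131 to 142 bp in the order above, had no FTO partner, so the loss ran on to the end of the gene's numbers. Between the 954 bp and the 183 bp peak, the Vector list had 9 peaks over 13 numbers and the FTO list 4 over 9 numbers. In summed length Magi1 went from 3579 bp to 1852 bp, which is a smaller decrease than in its number of peaks because the longest were kept.

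Irag1 (gene ID 308899) had 11 Vector peaks on 1 transcript, of 135, 120, 65, 108, 142, 141, 79, 612, 174, 101 and 149 bp. The only FTO peak was 612 bp long, equal to the longest Vector peak. The 10 others, none above 174 bp, had no FTO counterpart of any length. Its summed length came to 1826 bp with Vector and 612 bp with FTO. Since 10 of the 11 were shorter than 200 bp, Irag1 had 1 peak in each group once peaks under 200 bp were left out.

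Limch1 (gene ID 305332) had 9 Vector peaks on 1 transcript, of 124, 105, 81, 222, 409, 127, 36, 253 and 196 bp, or 1553 bp in all. Tnik (gene ID 294917) had 8, also on 1 transcript, of 424, 57, 176, 67, 205, 111, 189 and 185 bp, or 1414 bp in all. Neither had an FTO peak of any length. No Vector peak of Limch1 or Tnik reached 500 bp, in contrast to Magi1 and Irag1. With peaks of at least 200 bp alone, FTO minus Vector peaks came to -4 for Magi1, -3 for Limch1 and -2 for Tnik.

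**Figure D3:**
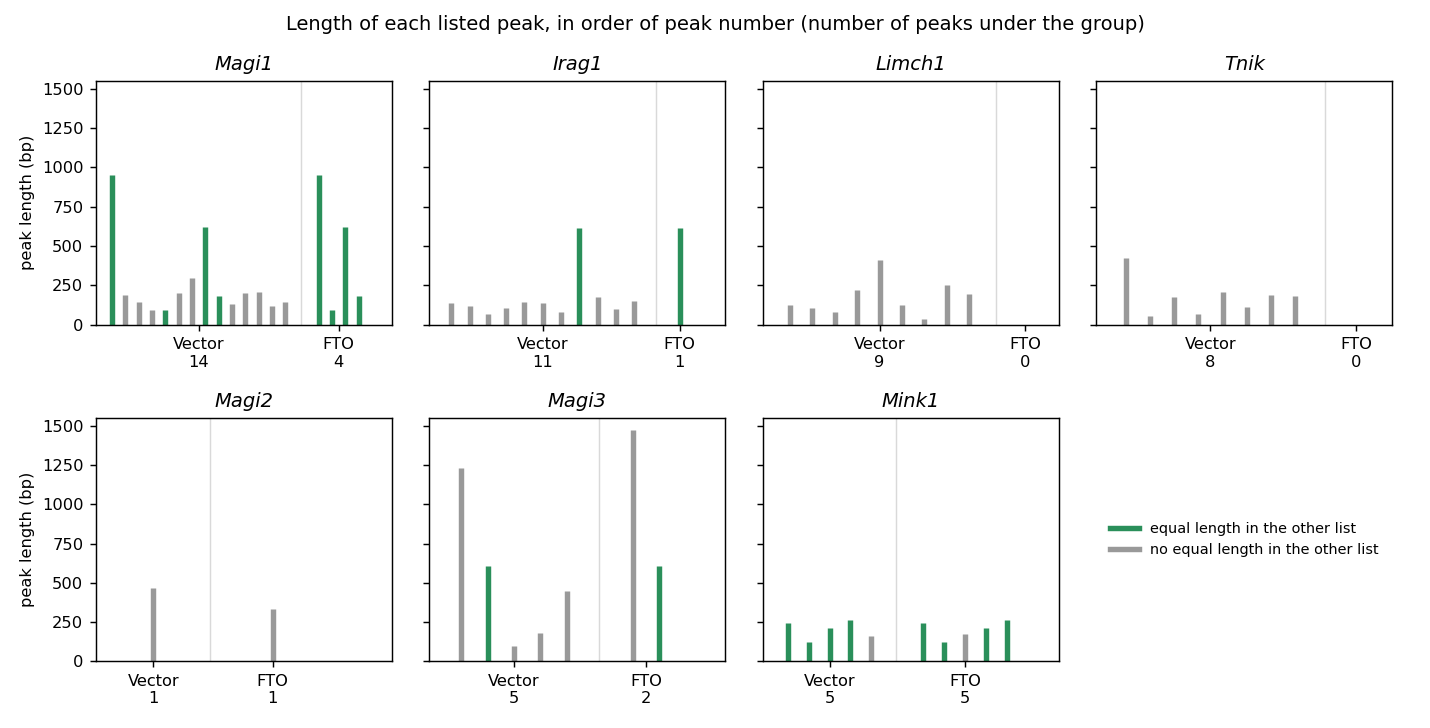
Length in bp (y axis) of every listed peak of the 7 genes, in order of peak number within each list (x axis, with the number of peaks under each group). Green lines have a peak of the same gene and length in the other list and grey lines have none. The green lines of Magi1 and Irag1 include every peak above 500 bp of these genes, and all lines of Limch1 and Tnik are grey.

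Among the relatives, only Mink1 kept most of its peak lengths. Mink1 (gene ID 303259) had Vector peaks of 244, 126, 211, 264 and 164 bp and FTO peaks of 244, 126, 176, 211 and 264 bp. It thus shared 4 lengths, exchanged 164 bp for 176 bp, and had 1009 and 1021 bp in all. Tnik and Mink1, kinases of the same small group, therefore differed in what was listed with FTO, by 0 peaks against 5. Magi3 (gene ID 245903) had Vector peaks of 1232, 606, 95, 178 and 449 bp and FTO peaks of 1469 and 606 bp. Its 606 bp peak was shared, its first peak was 1232 bp in the one list and 1469 bp in the other, and the 3 shorter ones had no FTO partner. Magi2 (gene ID 113970) had 1 peak, 467 bp long with Vector and 334 bp long with FTO, on the same transcript. Without a shared length in Magi2, and with 1 of 5 in Magi3, the unpaired share of these relatives was no lower than that of Magi1, at 71.4%.

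Taken over the 4 chosen genes, 37 of 42 Vector peaks had no FTO peak of equal length, or 88.1% (95% Wilson interval 75% to 94.8%, counting error only), and all 5 FTO peaks had a Vector partner. For the relatives it was 6 of 11, or 54.5% (28.0% to 78.7%), with 3 FTO peaks unpaired and 4 of the 5 pairs in Mink1. Over all genes the share was 42.7% and over those with at least 8 Vector peaks 31.5%. The shares of the 4 genes follow from how they were chosen. When an FTO peak of any length could serve as partner, the share of the relatives was 27.3%. The 88.1% could not change under this rule, because all 5 FTO peaks of the 4 genes already had a partner.

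In the 4 chosen genes few Vector peaks under 500 bp were kept, whatever their length. The 5 paired Vector peaks had a median of 612 bp and the 37 unpaired ones a median of 142 bp, none above 424 bp. Limch1 and Tnik had no FTO peak of any length and no Vector peak of 500 bp or more. In these pooled figures, length therefore cannot be told apart from gene. All 3 Vector peaks of 500 bp or more, at 954, 621 and 612 bp, were listed again at the same length, and 0 of 9 from 200 bp to under 500 bp were. Of 22 peaks from 100 bp to under 200 bp, 1 was paired, and of 8 shorter ones, 1. Among all genes with at least 8 Vector peaks the paired share was 77.4% for peaks of 500 bp or more, 76.3% for the class below it, 66.8% from 100 bp to under 200 bp and 59.0% for shorter peaks. The paired share thus rose with length across the 376 genes, whereas in the chosen genes it was high in the longest class alone, which held 3 peaks. Over all genes with a Vector peak it was 62.8% from 200 bp to under 500 bp and 56.9% above. Peaks of 1 gene are not independent.

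The peak numbers hold a further reading. Numbers ascended along the chromosomes (Spearman's rho of number against gene order of 0.866 or more on each of 21 chromosomes, with a median of 0.993 in the Vector list), and many numbers are missing from the lists, 38308 with Vector and 34264 with FTO. What the missing numbers stand for is not given in the sources used here. Between the nearest flanking peaks that both lists shared, the Vector list had 18 missing numbers around Irag1 and the FTO list 8. Around Limch1 there were 31 and 16, and around Tnik 26 and 13. Around these 3 genes the missing numbers thus decreased together with the listed peaks. Around Magi1, by contrast, the missing numbers were 36 with Vector and 37 with FTO, while its listed peaks went from 14 to 4.

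Set against other genes, the missing numbers in the FTO list came to 44.4% of those in the Vector list for Irag1, 51.6% for Limch1, 50% for Tnik and 103% for Magi1. The median was 88.6% over 266 genes with at least 8 Vector peaks and 10 missing numbers, and their middle 50% lay between 66.7% and 110%. Of these genes, 11 were at or below Irag1, 23 at or below Tnik and 24 at or below Limch1, each count including the gene itself. The relatives had 77.8% for Magi3, 83.3% for Mink1 and 126% for Magi2. The interval around Limch1 also held peaks of Slc30a9 and Apbb2, of which 5 were listed with Vector and 1 with FTO, so that its missing numbers are not those of Limch1 alone. The same holds for Magi2, where 6 of 7 listed Vector peaks in the interval belonged to other genes, and for Magi3, where 3 of 8 did. The Tnik interval held a Skil peak in each list, and the Irag1 interval a Lyve1 peak in the FTO list. The Vector intervals of Magi1, Irag1 and Tnik held 50, 29 and 35 numbers. Their own listed peaks spanned 25, 20 and 22 of these, and missing numbers beyond that span cannot be assigned to a gene.

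**Figure D4:**
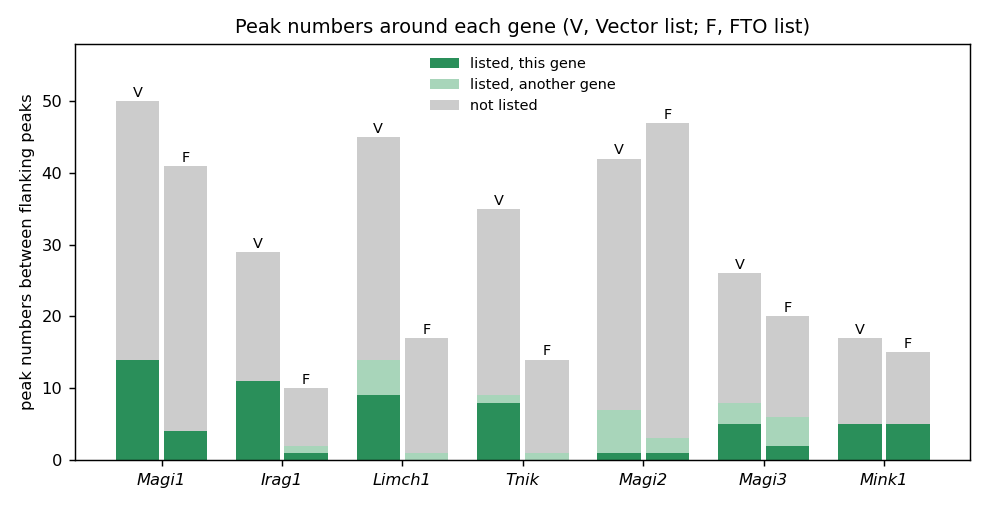
Peak numbers between the nearest flanking peaks shared by both lists (y axis) around each of the 7 genes (x axis), in the Vector (V) and FTO (F) lists, divided into peaks listed for the gene, peaks listed for another gene and numbers that are missing from the list. Listed and missing numbers are both lower with FTO around Irag1, Limch1 and Tnik, whereas around Magi1 the missing ones are 36 and 37.

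The 24 nearest protein-coding genes, 3 on each side by RefSeq order, had 28 Vector peaks and 24 FTO peaks, and of the 9 with a peak 4 had fewer, 2 as many and 3 more. The share with fewer was thus near the 41.4% of all genes, and most neighbours had no peak to compare. Ctr9, beside Irag1, had 6 and 5 peaks, and Pld1, beside Tnik, had 3 and 4. Prickle2, a planar polarity gene near Magi1, had 5 and 3. Both neighbours of Limch1 with a peak had fewer, Apbb2 at 5 and 3 and Slc30a9 at 3 and 1.

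The nearest genes outside the chosen 4 in number of peaks, by the sum of the absolute differences in both lists, were mostly not of the same families. For Magi1 they were Cit, with 15 and 4 peaks, Dzip1, with 14 and 5, and Mycbp2, with 13 and 5. Irag1 was nearest to Acan, Col4a4 and Cast, and Col4a4, with 9 and 1, was also the nearest to Limch1. Tnik was nearest to Piezo2, a mechanically gated channel with 8 and 1 peaks, to Kif4a and to Adamtsl3. Among genes at an equal distance the closest in summed Vector peak length were taken, and others tied, such as Frmd4b, with 8 and 1, and Adamtsl2 and Tmem132d for Tnik. Limch1, with 9 and 0, and Tnik, with 8 and 0, were also close to each other but were left out as chosen genes. The likeness is over 2 lists only.

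The scaffold family of MAGI was then followed in a list of MAGUK proteins and their partners, of which 26 of 27 symbols matched and 17 had a peak. Of these, 11 had fewer FTO peaks (64.7%), 4 had as many and 2 had more, and the median difference was -1, against 41.4% of all genes with fewer. The share with fewer was 75.5% among the 376 genes with at least 8 Vector peaks. Neither this list nor those below were matched to all genes in number of peaks, which limits each comparison with 41.4%. Tjp1, a tight junction scaffold, had 8 Vector peaks and 4 FTO peaks. Pals1, a polarity scaffold, had 6 and 2, and Dlg5 had 19 and 15. Patj, a partner of Pals1, went the other way with 1 and 3. Without the MAGI genes, 9 of 14 had fewer. Counting only peaks of 200 bp or more, 5 of 13 had fewer (38.5%), where 27.5% of all genes with such a peak had fewer.

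The molecules that MAGI proteins hold at junctions were mixed. Of 20 with a peak, 11 had fewer FTO peaks (55.0%), 3 as many and 6 more, where 41.4% of all genes had fewer and 21.2% more. The actin crosslinker Actn1 had 7 Vector peaks and 2 FTO peaks, and the ubiquitin ligase Nedd4l had 4 and 1. Amotl1, an angiomotin, had 9 in each group with all 9 lengths equal. Cdh11, the cadherin of fibroblasts, had 10 and 7, and Rapgef2 had 9 and 6. At 200 bp or more, 7 of 19 had fewer (36.8%).

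In the Ste20 family, Tnik, chosen for its decrease, was the kinase with the largest difference. Of the 20 kinases with a peak, 10 had fewer FTO peaks (50% against 41.4% of all genes), 8 as many and 2 more, with a median difference of -0.5. Without Tnik and Mink1, 9 of 18 had fewer. Map4k4, a close relative of Tnik and Mink1, had 13 and 10 peaks, and its 10 FTO peaks all had Vector partners. Nrk, another relative, had 1 in each. Stk10 had 14 and 11, and Taok3 had 12 in each. Pak2, a kinase downstream of Rac and Cdc42, had 4 Vector peaks and 0 FTO peaks. No FTO peak was listed for 19.0% of genes with 1 to 7 Vector peaks and for 0.798% of those with at least 8. The first class holds many genes with a lone Vector peak, and the share at 4 Vector peaks was not computed. Counted from 200 bp upward, 4 of 16 kinases had fewer (25%), close to the 27.5% of all genes.

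Partners of TNIK and MINK1 gave 9 genes of 18 with fewer FTO peaks, 7 with as many and 2 with more, again beside 41.4% of all genes with fewer. Tcf7l2, the TCF factor with which TNIK acts, had 5 Vector peaks and 1 FTO peak, while its relative Tcf7l1 had 6 and 7. The adaptor Traf2 and the JNK kinase Mapk9 each had 2 and 0, the adaptor Nck2 had 5 and 4, and the Rap2 GTPases that bind these kinases had equal numbers throughout. At 200 bp or more, 2 of 14 partners had fewer (14.3%), below the 27.5% of all genes.

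In the pathway of IRAG1, the share of genes with fewer FTO peaks was 9 of 21 (42.9%), near that of all genes, with 8 as many and 4 more. Without Irag1, 8 of 20 genes had fewer, and the list had 48 Vector peaks and 47 FTO peaks. Gucy1a1, a subunit of soluble guanylate cyclase that makes cGMP, had 4 and 0 peaks. The other subunits, named here after their values were seen, were Gucy1a2 with 3 and 0 and Gucy1b1 with 1 and 0. Itpr3, an IP3 receptor, went the other way with 4 Vector peaks and 10 FTO peaks, and Itpr1, also named afterwards, had 0 and 2. The myosin phosphatase subunits Ppp1r12a and Ppp1r12b had 11 and 11 and 4 and 8. With peaks of every length, the list as a whole thus lay at the share of all genes, with members on both sides. At 200 bp or more, 6 of 16 had fewer (37.5%), where 27.5% of all genes with such a peak had fewer.

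Among the relatives of LIMCH1 and the genes of non-muscle actomyosin, 13 of 30 (43.3%) had fewer FTO peaks, 10 as many and 7 more. This was again near the share of all genes, although these 30 genes, with 186 Vector peaks, had more peaks each than all genes. Limch1, chosen for its decrease, had the largest difference, and without it 12 of 29 had fewer. Rock2, a kinase that activates myosin, had 12 and 6 peaks, its homologue Rock1 had 16 and 13, and Svil, which links actin to the membrane, had 13 and 8. Myh14, a heavy chain of non-muscle myosin II, had 5 and 0, while Myh10, another of these chains, had 11 and 13. Lmo7, which shares the domain plan of LIMCH1 and is named here for that reason, had 3 in each group. At 200 bp or more, 7 of 26 had fewer (26.9%).

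**Figure D5:**
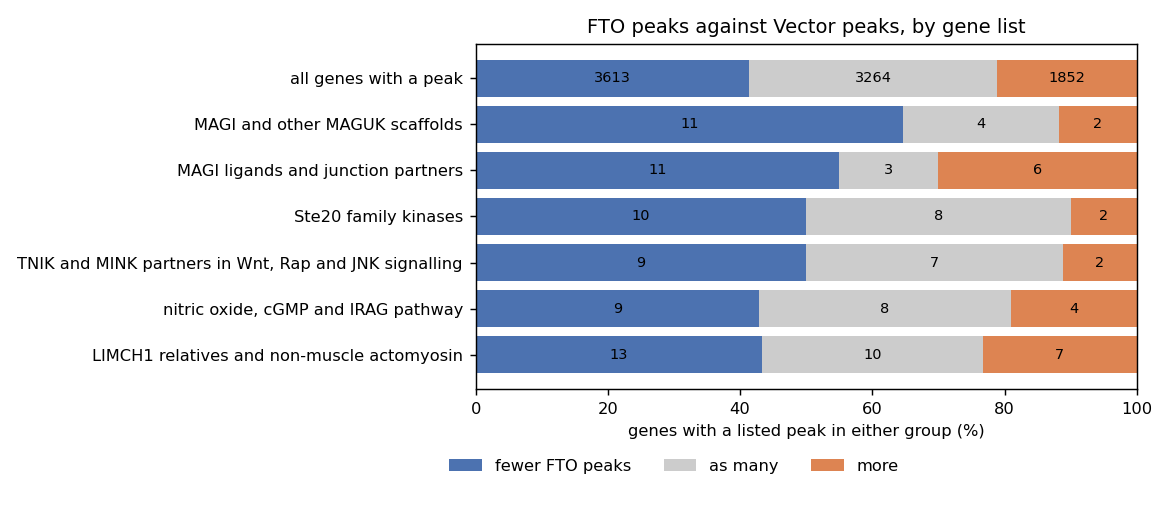
Share of genes (x axis, percent of genes with a listed peak in either group) that had fewer, as many or more FTO peaks than Vector peaks, for all genes and for 6 gene lists (y axis), with the number of genes printed in each segment. Fewer FTO peaks were listed for 41.4% of all genes and 64.7% of the MAGUK list, and the lists of IRAG1 and LIMCH1 lie near all genes, at 42.9% and 43.3%. The lists were not matched to all genes in number of peaks per gene.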

How the data were processed

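The 4 libraries of NRCFs were assigned to Vector or FTO, and to IP or input, by their titles. The authors deposited 1 peak list per group, and the measurement used was the deposited peak length in bp, another kind of value than a count or signal and not normalized. The submitters' processing notes name cutadapt 1.9.3, HISAT2 2.0.4 and build rn6, and the peak names carry the prefix MACS. Caller version, settings, threshold and annotation release are not given in the sources used here. Whether a peak is listed depends on that threshold and on depth, which is unknown.

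The 7 genes and the 6 pathway lists were chosen with earlier results of these data known. Genes were matched by NCBI gene ID to RefSeq symbols (GRCr8 table, 7489 of 7723 Vector IDs and 6920 of 7145 FTO IDs). Only names and gene order were taken from it, because the build differs. Peaks were paired 1 to 1 within a gene at equal length. Besides the 7 genes and Fto, the genes named are, for each list, the 3 with the most peaks and the 3 with the largest difference (ties kept up to 5), and the 3 nearest in number to each chosen gene. Some genes that this rule names are not reported here. Neighbours, markers, genes at the edge of the selection, Patj, Nrk, Lmo7 and the Rap2 genes were named after their values were seen. On simulated lists from 7894 genes, pairing found 12611 of 12611 pairs made. This checked the counting alone, because kept peaks had unchanged lengths and the others were dropped or given lengths absent from the gene. It could not measure how often different peaks of a gene share a length, or how often 1 peak changes length between lists. Shares have 95% Wilson intervals. Sequences of the peaks were not used here. Scripts ran under Python 3.11.15 with scipy 1.17.1, pandas 2.3.3, numpy 2.4.6 and matplotlib 3.10.9.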

Additional observations from a re-analysis of the deposited data

How the results depend on the processing

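Of 62 values under the alternatives, 44 stayed within 1.5 times the value given above (for shares, inside its Wilson interval), 18 moved further and 0 changed sign. Most of the 62 are counts, shares or lengths, which cannot change sign, and a value of 0 was never counted as changing. Irag1 went from -10 to 0 with peaks of at least 200 bp, and Mink1 from 0 to 0.9702 with FTO numbers scaled to the list sizes. Looser pairing could not change the unpaired share of the 4 chosen genes, and scaling could not change Limch1 or Tnik, which had 0 FTO peaks. Such values are counted among the 44 and do not measure stability. Keeping peaks of at least 200 bp moved most. FTO minus Vector peaks then came to -9 in total for the 4 chosen genes, against -37, and to -1 for the relatives, against -3. Under this limit the genes with fewer FTO peaks numbered 5 in the MAGUK list, 7 among the MAGI partners and 4 among Ste20 kinases. They numbered 2 among partners of TNIK and MINK1, 6 in the pathway of IRAG1 and 7 among actomyosin genes. Over all genes 27.5% had fewer at this limit, against 41.4%. Multiplying the FTO numbers by 1.194, the ratio of the list sizes, gave -1.448 for the relatives in total and -36.03 for the 4 chosen genes. With any peak of the gene as a partner, 27.3% of the relatives' Vector peaks were unpaired. The mean length of the relatives' peaks came to 366.9 bp (Vector) and 428.8 bp (FTO), against medians of 244 and 254 bp. No replicate could be left out. No paired analysis was possible because the 2 groups hold a lone library pair each and no test was run. The unknown depth limits every comparison of numbers of peaks.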
